A study of Bos taurus with 6 samples.

Results

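The genes described here are 10 transducers of WNT signaling, from the co-receptors LRP5 and LRP6 through DVL1, DVL2 and DVL3 to the kinases GSK3A and GSK3B, the scaffolds AXIN1 and APC, and the DNA-binding factor TCF7L1. Rows were taken by gene symbol, and each symbol matched 1 of the 36075 rows of the table. The genes were selected on their transcript abundance (TPM) in control and MT-treated libraries, so the difference between the groups is a description here and carries no test. RNA of bovine blastocysts was sequenced in 6 libraries. For 3 of them the oocytes had spent their 22 h of maturation in 1e-07 mol/L melatonin (MT), and for the 3 controls in the same medium without MT. Oocytes of both groups came from slaughterhouse ovaries and were fertilized and cultured in vitro, and each library was made from a pool of 3 blastocysts, so embryos cannot be told apart within a library. MT was present only during oocyte maturation, days before the RNA was collected.

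In cells without a WNT signal, AXIN and APC hold the protein beta-catenin next to casein kinase 1 and GSK3, which phosphorylate it and mark it for destruction by the proteasome. A WNT ligand joins a frizzled receptor to LRP5 or LRP6, DVL proteins gather at the membrane and draw AXIN away, and beta-catenin then accumulates, enters the nucleus and works with TCF and LEF proteins on target genes. GSK3 was first known as a kinase of glycogen synthase, and inhibitors of GSK3 are used to keep embryonic stem cells in culture, where TCF7L1 acts as a repressor of pluripotency genes.

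Values were deposited as TPM, a measure of transcript abundance that is corrected for gene length and for the size of the library, so levels can be compared between genes. The study reports the sequencing depth of each replicate in its supplement, but depth was not used here. The number of genes above 0 was 8854 to 8953 in control and 14372 to 14408 in MT-treated libraries, and the Pearson correlation of log2(TPM + 1) across tested genes was at least 0.991 within groups and 0.544 to 0.546 between them, taken over genes and not over replicates. Testing covered the 11953 genes that reached 1 TPM in 3 or more libraries, and 95.7% of them passed limma at an adjusted p-value under 0.05, and 33.8% were listed at 0 in every control library. All 15 housekeeping genes and all 12 RNA polymerase II subunits examined were above 0 in every library, whereas SMARCA4, an ATPase of chromatin remodeling used by most cells, was listed at 0 in all of control but at 34.2, 35.2 and 34.6 TPM with MT. A gene listed at 0 in every library of a group is therefore described only as such, with its TPM in the other group and no fold change or p-value, and where it counts among higher or lower genes below, the count rests on how that 0 arose, which was not tested. Blastocyst markers differed in both directions. The 5 inner cell mass markers summed to 232.3 to 238.5 TPM in control and 211.2 to 216.1 TPM with MT, and 2 were higher and 2 lower by limma. POU5F1 had a mean of 189.8 TPM in control and 192.6 TPM with MT, KLF17 44.6 and 5.53 TPM, and LIN28B 1.21 and 0.42 TPM. NANOG was at 0 throughout control and at 8.68 TPM with MT. SOX2 had 0, 0.02 and 0 TPM in control and 5.88, 6.80 and 6.95 TPM with MT. Of the 8 trophectoderm markers 6 were higher and 2 lower by limma. KRT8 and KRT18 were abundant in all libraries, GATA2 had a mean of 7.07 TPM in control and 49.1 TPM with MT, GATA3 19.5 and 36.7 TPM, TFAP2C 22.4 and 42.4 TPM, and TFAP2A 36.1 and 0.49 TPM, and CDX2 was at 0 throughout control and at a mean of 16.1 TPM with MT. The summed TPM of 6 hypoblast markers was 0.20 to 0.44 in control and 61.2 to 69.6 in MT-treated libraries, with GATA4 and FOXA2 at 0 throughout. Of 9 markers of cumulus and granulosa cells, FSHR made up nearly all of the summed 17.2 to 19.3 TPM in control and 15.1 to 17.1 TPM in MT-treated libraries, and CYP19A1, FOXL2 and INHA were at or near 0. Fewer cells of a type and less RNA per cell cannot be told apart in such pools, and the part of cell makeup in the values below was not tested.

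GSK3B was the most abundant of the 10 genes in control blastocysts and was lower with MT, while its paralog GSK3A was listed at 0 in control and turned direction under quantile normalization of the tested genes, which gives all libraries the same distribution, but not when no filter was applied. GSK3B (ENSBTAG00000048057) had 172.5, 170.8 and 174.4 TPM in control and 19.0, 19.9 and 20.2 TPM with MT. The mean of 172.6 ± 1.80 TPM (SD, n = 3) in control was 8.77 times that of 19.7 ± 0.613 TPM (SD, n = 3) with MT, and the groups lay far apart. GSK3B stood above 90.8% of the genes detected in control and above 68.0% of those detected with MT. Of 1485 genes with a control mean of at least 100 TPM, 7.41% had a mean at least 5 times lower with MT. GSK3A (ENSBTAG00000020756) was listed at 0 in the control libraries and had 1.76, 2.10 and 2.02 TPM with MT. The second kinase thus contributed 8.48, 9.55 and 9.10% of the GSK3 TPM in the MT-treated libraries, and the sum of both kinases was 172.6 ± 1.80 TPM in control and 21.6 ± 0.777 TPM with MT (SD, n = 3 each).

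**Figure D1:**
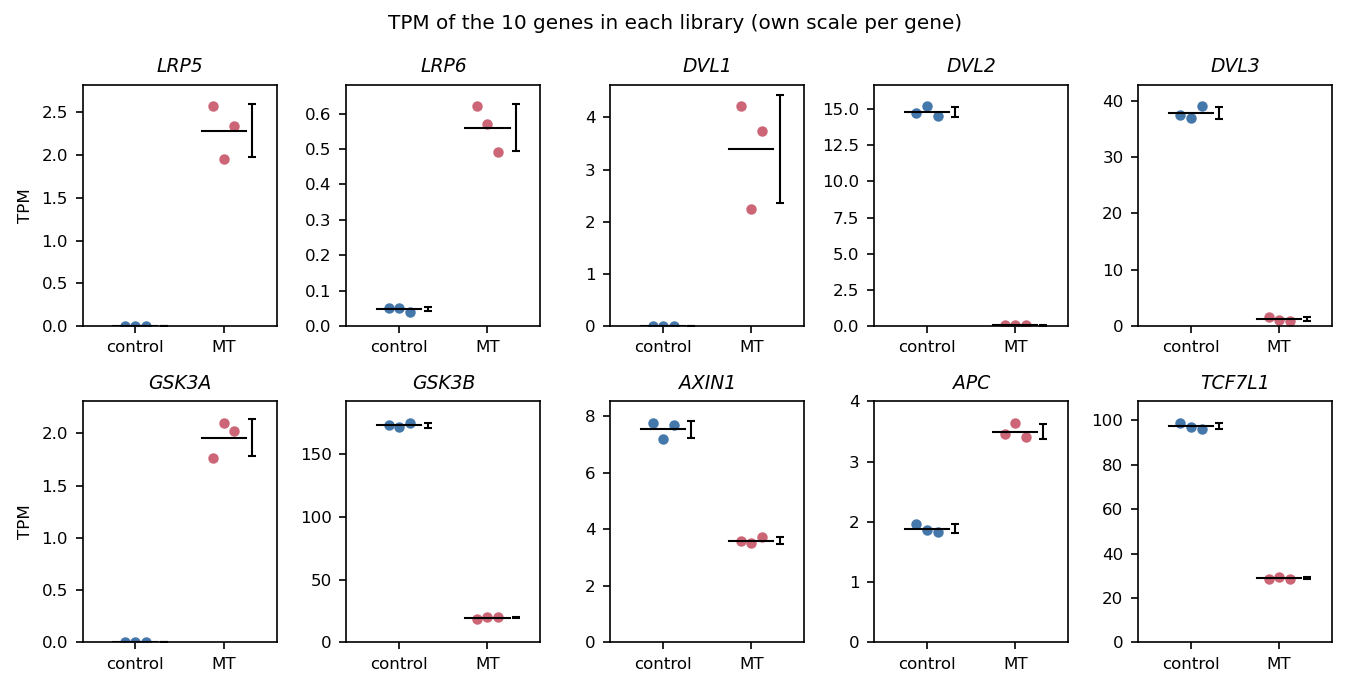
TPM of each of the 10 genes (vertical axes in TPM from 0, a scale per gene) in 3 control and 3 MT-treated libraries. Points are libraries, horizontal lines are group means and bars beside them are ± 1 SD. In every panel the control and MT-treated points are separate, with 5 genes higher and 5 lower in MT-treated blastocysts in TPM as deposited. Quantile normalization of the tested genes turned GSK3A, LRP5, DVL1 and APC, and without a filter it turned APC and LRP6.

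The co-receptors that receive the WNT signal together with frizzled proteins had at most 2.57 TPM with MT, and in control LRP5 was listed at 0. Quantile normalization turned the direction of LRP5 among the tested genes but not without a filter, and that of LRP6 without a filter, the only setting in which it was covered. LRP5 (ENSBTAG00000005903) was listed at 0 in each control library and reached 2.57, 1.95 and 2.34 TPM with MT. LRP6 (ENSBTAG00000011761) had 0.05, 0.05 and 0.04 TPM in control and 0.62, 0.57 and 0.49 TPM with MT. Values of LRP6 in control are only a few steps above the 0.01 TPM to which the table is rounded, so no fold is given, and LRP6 was the 1 gene of the 10 that did not reach the level required for testing. With MT, LRP5 made up 80.2 ± 2.67% (SD, n = 3) of the TPM of both co-receptors.

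The dishevelled proteins, which relay the signal from the receptors to the AXIN scaffold, showed opposite values among paralogs in TPM as deposited, although the direction of DVL1 turned under quantile normalization of the tested genes and not when no filter was applied. DVL3 (ENSBTAG00000019336) had 37.6, 37.0 and 39.0 TPM in control and 1.61, 1.12 and 0.90 TPM with MT. Its control mean of 37.9 ± 1.07 TPM was 31.3 times the MT-treated mean of 1.21 ± 0.363 TPM (SD, n = 3 each). DVL2 (ENSBTAG00000003075) had 14.7, 15.2 and 14.5 TPM in control and 0.05, 0.03 and 0.03 TPM with MT, only a few steps above the 0.01 TPM of rounding. DVL1 (ENSBTAG00000010696), in contrast, was listed at 0 in the control libraries and had 4.21, 2.24 and 3.73 TPM with MT. The summed TPM of the family was 52.7 ± 0.779 in control and 4.64 ± 1.24 with MT (SD, n = 3 each). In control, 71.9 ± 1.0% of that sum was DVL3 and 28.1 ± 1.0% DVL2. With MT, DVL1 supplied 72.6 ± 7.03%, DVL3 26.6 ± 6.90% and DVL2 0.794 ± 0.131% (SD, n = 3 each). DVL3 thus led in every control library and DVL1 in every MT-treated library. Of 3870 genes with a control mean of 10 to 100 TPM, 14.5% had a mean at least 10 times lower with MT, and of 2167 genes that averaged 1 to 5 TPM with MT, 56.4% were listed at 0 in every control library, as were GSK3A, LRP5 and DVL1.

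**Figure D2:**
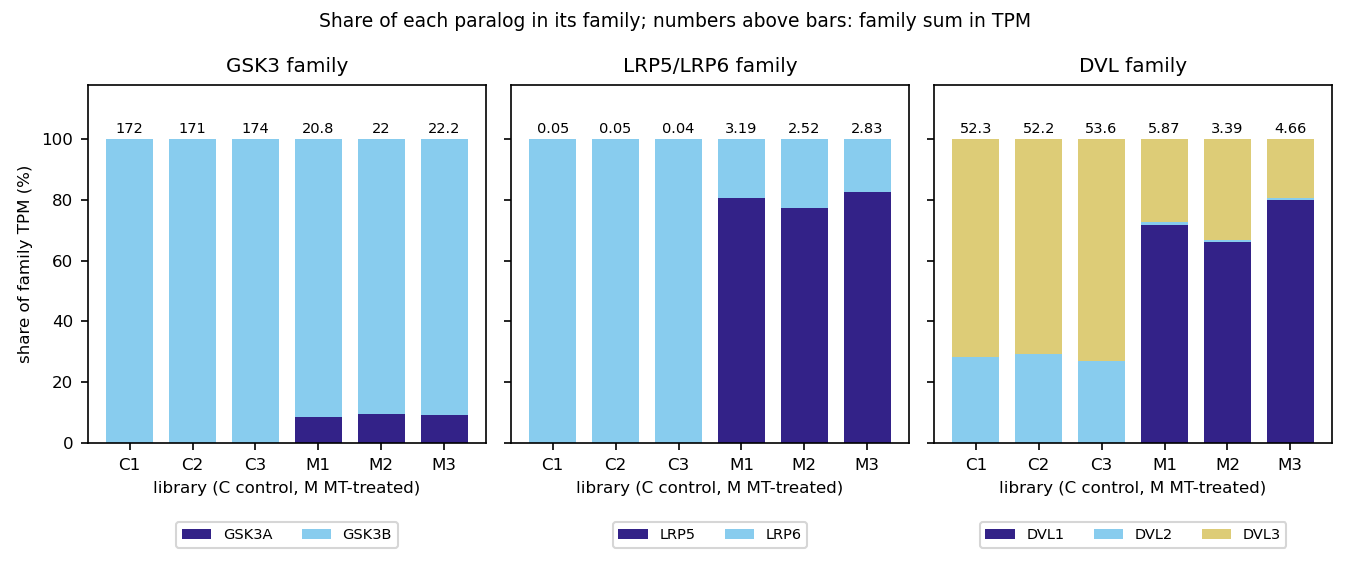
Share of each paralog (vertical axis, % of the family's TPM) in the GSK3, LRP5/LRP6 and DVL families for each library, with the family sum in TPM above each bar. GSK3B holds 90.5 to 91.5% of its family in the MT-treated libraries, whereas LRP5 and DVL1 hold most of theirs there and none in control. The family sums of GSK3 and DVL are lower in all MT-treated libraries, and that of LRP5 and LRP6 is higher in TPM as deposited, a direction that quantile normalization turned for LRP6 and, with the filter, for LRP5.

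The scaffolds of the destruction complex had low levels, and their differences depended on the scaling. AXIN1 (ENSBTAG00000016577) had 7.76, 7.20 and 7.67 TPM in control and 3.58, 3.50 and 3.73 TPM with MT, means of 7.54 ± 0.301 and 3.60 ± 0.117 TPM (SD, n = 3 each) that differ 2.09-fold. Its difference in log2(TPM + 1) was -0.89 as deposited, -0.41 after median centring and -2.50 after quantile normalization, while that of GSK3B was -3.07, -2.59 and -3.16. APC (ENSBTAG00000018852), the larger scaffold that also binds beta-catenin, had 1.97, 1.86 and 1.83 TPM in control and 3.45, 3.64 and 3.40 TPM with MT, a 1.85-fold higher mean. For APC the difference in log2(TPM + 1) was 0.64 as deposited and -1.57 after quantile normalization. Beta-catenin itself (CTNNB1), the substrate of the complex, rose from 28.6 ± 0.747 to 55.7 ± 1.61 TPM (SD, n = 3 each), which is 0.94 higher in log2(TPM + 1) with a standard error of 0.03 (limma, adjusted p = 3.47e-07). Per unit of CTNNB1, GSK3B stood at 6.03 ± 0.204 in control and 0.353 ± 0.00935 with MT, AXIN1 at 0.264 ± 0.0171 and 0.0646 ± 0.000603, and APC at 0.0659 ± 0.00379 and 0.0628 ± 0.00376 (ratios of TPM, SD, n = 3 each). The APC ratios of the groups overlapped, and those of GSK3B and AXIN1 did not. The latter follows from the lower GSK3B and AXIN1 and the higher CTNNB1 given above, and adds no separate result.

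TCF7L1 (ENSBTAG00000010111), the factor through which target genes are held down without beta-catenin, had 98.8, 97.2 and 96.2 TPM in control and 28.6, 29.4 and 28.6 TPM with MT. The control mean of 97.4 ± 1.35 TPM was 3.38 times the MT-treated mean of 28.9 ± 0.479 TPM (SD, n = 3 each), and with MT it was the most abundant of the 10 genes. Its paralog TCF7L2 fell from 60.2 ± 5.63 to 21.7 ± 0.964 TPM (SD, n = 3 each), with a difference in log2(TPM + 1) of -1.43 with a standard error of 0.07 (limma, adjusted p = 2.39e-06), while TCF7 and LEF1 were listed at 0 in all 6 libraries. TCF7L1 was the larger of both TCF7L genes throughout, with 61.9 ± 1.86% of their TPM in control and 57.0 ± 1.37% with MT (SD, n = 3 each).

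In control blastocysts the levels ran from GSK3B over TCF7L1, DVL3, DVL2, AXIN1 and APC to LRP6, and no neighbours in this order overlapped between libraries until the 3 genes listed at 0. With MT the order began with TCF7L1 and GSK3B, and DVL3, LRP6 and DVL2 came last. Between them AXIN1, APC, DVL1, LRP5 and GSK3A lay between 1.76 and 4.21 TPM, and each overlapped its neighbour in rank. Replicates of the abundant genes were close to each other, with a coefficient of variation of 1.04% for GSK3B and 1.38% for TCF7L1 in control and of 3.11% and 1.66% with MT. Over 2992 genes with at least 20 TPM in all libraries the median was 2.07% in control and 2.56% with MT. The spread was widest in MT-treated blastocysts for DVL1, DVL2 and DVL3, between 30.0 and 31.5%. That of DVL2 rests on 0.05, 0.03 and 0.03 TPM, where rounding to 0.01 TPM weighs heavily.

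All 10 genes had groups that do not overlap, 5 higher and 5 lower with MT. Among the tested genes 96.1% did not overlap, 61.9% being higher and 34.2% lower. Of the 10 genes, 9 reached the level required for testing, and 4 of these (GSK3A, LRP5, DVL1 and DVL2) only through the group in which they were high. Each library centred on its median, which removed a shift of -0.48 between the groups in log2(TPM + 1), left all 10 directions in place. Quantile normalization left the 5 lower genes lower, with differences from -1.50 for TCF7L1 to -4.60 for DVL3 in log2(TPM + 1). It turned 4 of the 5 higher genes to lower values (GSK3A, LRP5, DVL1 and APC), and LRP6, which it covered only when no filter was applied, turned to -1.28. With no filter GSK3A, LRP5 and DVL1 stayed higher. Quantile normalization turned the direction of 23.5% of all tested genes that were higher as deposited and of 6.80% of those that were lower.

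**Figure D3:**
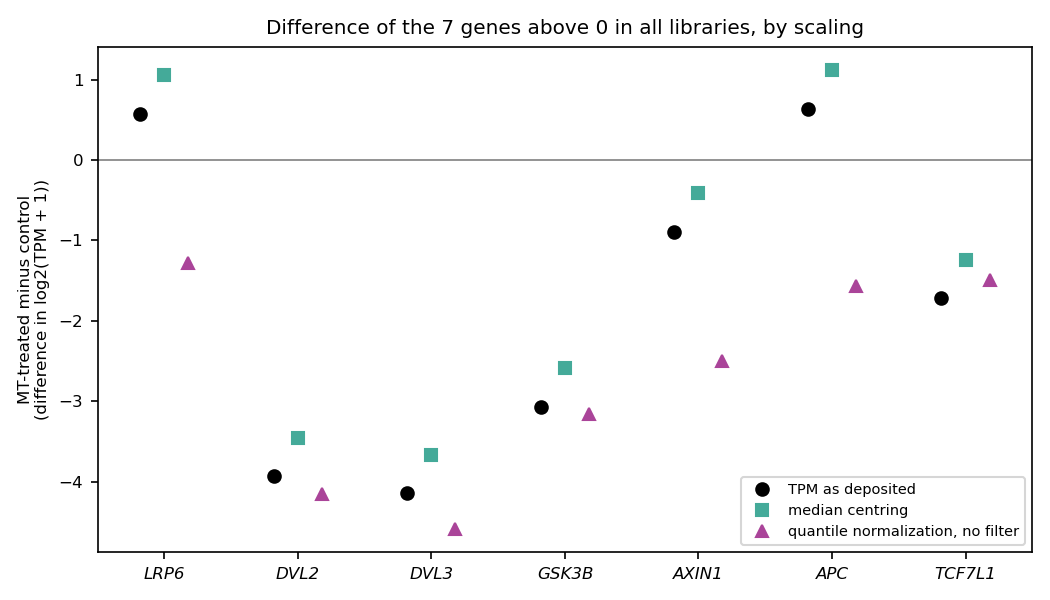
Difference between MT-treated and control blastocysts in mean log2(TPM + 1) (vertical axis) for the 7 genes above 0 in all 6 libraries, as deposited (circles), after median centring (squares) and after quantile normalization without a filter (triangles). GSK3B, DVL2, DVL3, AXIN1 and TCF7L1 lie below 0 under all 3, while APC and LRP6 lie above 0 under the first 2 and below it under quantile normalization.

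By the pattern over the 6 libraries, the genes closest to GSK3B were GPD2, a mitochondrial glycerol phosphate dehydrogenase, MGAT4A, a Golgi glycosyltransferase, and CMSS1, with root mean square distances of 0.074, 0.117 and 0.159 in log2(TPM + 1) among 10087 tested genes with a symbol. GPD2 had 174.2, 170.6 and 161.8 TPM in control and 20.7, 21.1 and 20.3 TPM with MT. Closest to GSK3A were PAK3, a kinase, TUBGCP6, a component of the gamma-tubulin ring, and GNAI1, a G protein subunit, at distances of 0.028 to 0.0314. PAK3 was listed at 0 in each control library and had 1.84, 2.22 and 2.02 TPM with MT.

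**Figure D4:**
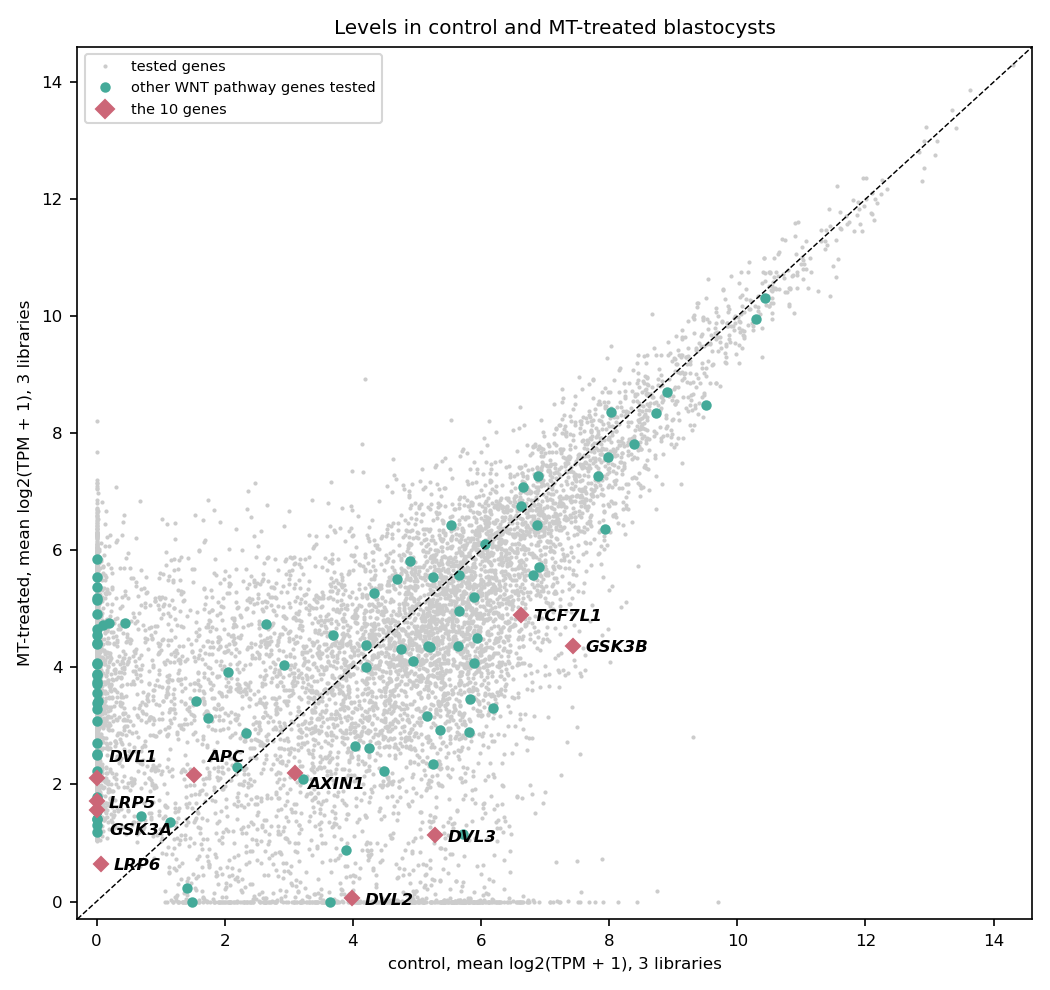
Mean log2(TPM + 1) of 3 control libraries (horizontal axis) and 3 MT-treated libraries (vertical axis) for the 11953 tested genes (grey), the tested genes of the WNT pathway lists (green) and the 10 genes (red, labelled, LRP6 included although it was not tested). The dashed line marks equal levels. GSK3B, TCF7L1, DVL3, DVL2 and AXIN1 lie below it, and GSK3A, LRP5 and DVL1 lie on the column of genes listed at 0 in control.

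To place these values in the pathway, 168 further genes were listed by role, of which 165 had a row of that symbol. Of these, 56 were listed at 0 in all libraries and 15 were below the level required for testing, which left 94. MT-treated blastocysts had 54 of the 94 higher (57.4%) and 37 lower (39.4%) at an adjusted p-value under 0.05 by limma, against 61.6% higher and 34.1% lower of all tested genes. The median difference in log2(TPM + 1) was 0.49, against 1.12 over all tested genes. Every control library listed 31 of the 54 at 0, and 39 of the 94 reached the level for testing in 1 group only. Among the 59 that were above 0 in all libraries, 21 were higher and 35 lower, with a median difference of -0.40. Of all 6925 tested genes of that kind, 2809 were higher and 3620 lower, with a median of -0.19, so lower genes were the majority in both. With quantile normalization 38 were higher and 49 lower, and with median centring 63 were higher and 29 lower.

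WNT ligands were mostly undetected, with 14 of 19 listed at 0 in all libraries and 3 tested. WNT5B, a ligand of the beta-catenin-independent arm, had 11.5, 11.9 and 11.1 TPM in control and was listed at 0 in each MT-treated library. WNT7A was listed at 0 in control and had 1.35, 1.37 and 2.32 TPM with MT. Quantile normalization turned its direction, which for tied zeros in control measures no change in level. WNT6 had 17.6 ± 0.891 TPM in control and 19.8 ± 1.32 TPM with MT (SD, n = 3 each; adjusted p = 0.0344 by limma), and its small difference also turned under quantile normalization. Both genes needed to release ligands were listed at 0 in every control library. PORCN, which attaches the lipid, had 8.75, 9.64 and 10.1 TPM with MT, and WLS, the carrier to the cell surface, had 21.5, 20.2 and 18.6 TPM.

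Receptors that work beside LRP5 and LRP6 were higher for 5 and lower for 3 of 8 tested genes, 4 and 3 after quantile normalization, and 2 and 2 among the 4 above 0 in all libraries. FZD3, a frizzled receptor that reached the level for testing only through the MT-treated group, had 0.18, 0.02 and 0.24 TPM in control and 23.5, 24.1 and 31.2 TPM with MT. The co-receptor PTK7 was listed at 0 in each control library and had 25.4, 24.7 and 22.3 TPM with MT. FZD9 had 1.59, 1.55 and 2.34 TPM in control and was listed at 0 in each MT-treated library. ATP6AP2, which links receptors to the proton pump, fell from 244.2 ± 2.97 to 81.8 ± 2.03 TPM (SD, n = 3 each), with a difference in log2(TPM + 1) of -1.57 with a standard error of 0.02 (limma, adjusted p = 6.28e-09). Of 4 tested genes of the R-spondin system, which protects receptors from turnover, the ligand RSPO3 had 2.09, 1.80 and 1.87 TPM with MT and 0 in control. As for WNT7A, its direction turned under quantile normalization. Of its receptors, LGR4 fell from 37.0 ± 1.38 to 4.08 ± 0.1002 TPM (SD, n = 3 each; adjusted p = 3.79e-09 by limma), and LGR5 was listed at 0 in each control library and had 7.74, 7.70 and 7.10 TPM with MT. TMEM59, a modulator of frizzled receptors, fell from 252.5 ± 4.65 to 191.7 ± 4.54 TPM (SD, n = 3 each), but its direction turned under median centring. All 3 tested antagonists were listed at 0 in every control library and reached the level for testing only through the MT-treated group. DKK1 and DKK2, secreted proteins that bind LRP5 and LRP6, had 10.9, 10.3 and 11.1 TPM and 12.6, 14.0 and 14.2 TPM with MT. The third, KREMEN1, a receptor of DKK proteins named here after its values were seen, had 6.19, 11.9 and 2.0 TPM with MT. Quantile normalization left 2 of the 3 among the higher genes, without KREMEN1.

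Partners of the destruction complex were higher for 15 and lower for 9 of 25 tested genes, 12 and 12 after quantile normalization, and 9 and 9 among the 19 above 0 in all libraries. AXIN2, the second AXIN scaffold and a common target of the pathway, had 13.9, 13.8 and 13.8 TPM in control and 0.82, 1.04 and 0.69 TPM with MT. AXIN2 held 64.7 ± 0.839% of the TPM of both AXIN genes in control and 19.1 ± 3.67% with MT (SD, n = 3 each). The casein kinases CSNK1D and CSNK1G1, of which the first is used by most cells, were listed at 0 in each control library. CSNK1D had 28.9, 29.8 and 29.2 TPM with MT, and CSNK1G1 had 39.5, 42.1 and 40.5 TPM. PPP2R5A, a regulatory subunit of the phosphatase PP2A, fell from 55.9 ± 4.14 to 10.04 ± 0.135 TPM (SD, n = 3 each; adjusted p = 4.71e-08 by limma).

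Among nuclear partners of beta-catenin 7 of 15 tested genes were higher and 6 lower as deposited. Quantile normalization gave 5 higher and 8 lower, and among the 11 above 0 in all libraries 3 were higher and 6 lower. The corepressor TLE1, which binds TCF proteins, was listed at 0 in each control library and had 66.2, 48.4 and 57.7 TPM with MT. The acetyltransferase EP300 fell from 34.8 ± 0.571 to 7.95 ± 0.281 TPM (SD, n = 3 each; limma, adjusted p = 1.16e-08). Of 19 genes widely used as WNT targets, 9 were listed at 0 in all libraries, and 6 of the 8 tested were higher and 2 lower as deposited. Of the 6, 4 were listed at 0 in every control library. Quantile normalization gave 4 in each direction, and among the 4 above 0 in all libraries 2 were higher and 2 lower. CD44, an adhesion receptor, was listed at 0 in each control library and had 11.9, 11.9 and 12.7 TPM with MT. The lower genes were AXIN2 and JUN, and JUN fell from 55.5 ± 1.06 to 6.49 ± 0.477 TPM (SD, n = 3 each; adjusted p = 1.37e-08 by limma).

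Regulators and binding proteins of GSK3 were lower for 9 and higher for 7 of 16 tested genes, 10 and 5 after quantile normalization, and 9 and 2 among the 11 above 0 in all libraries. After median centring 7 were lower and 9 higher. GYS1, the glycogen synthase of most tissues and a substrate of GSK3, was listed at 0, 0 and 0.25 TPM in control and had 27.9, 26.5 and 22.6 TPM with MT, the group through which alone it was tested. SGK1 and RPS6KA3, both kinases that can phosphorylate GSK3, fell from 58.5 ± 1.11 to 16.1 ± 3.72 TPM and from 39.99 ± 0.544 to 6.66 ± 0.593 TPM (SD, n = 3 each; adjusted p = 3.11e-05 and 6.62e-08 by limma). In the planar polarity arm, which shares DVL but not beta-catenin, 7 of 13 tested genes were higher and 6 lower as deposited. Quantile normalization gave 5 higher and 8 lower, and among the 8 above 0 in all libraries 2 were higher and 6 lower. The DVL-binding formin DAAM1 fell from 72.1 ± 1.501 to 8.89 ± 0.335 TPM (SD, n = 3 each; adjusted p = 2.79e-09 by limma), whereas its paralog DAAM2 was listed at 0 in each control library and had 38.6, 32.9 and 35.1 TPM with MT. PRICKLE2, a core polarity gene, was likewise listed at 0 in control and had 16.3, 15.5 and 15.9 TPM with MT. MAPK9, a Jun kinase, fell from 51.5 ± 0.896 to 1.23 ± 0.199 TPM (SD, n = 3 each; adjusted p = 7.02e-09 by limma).

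**Figure D5:**
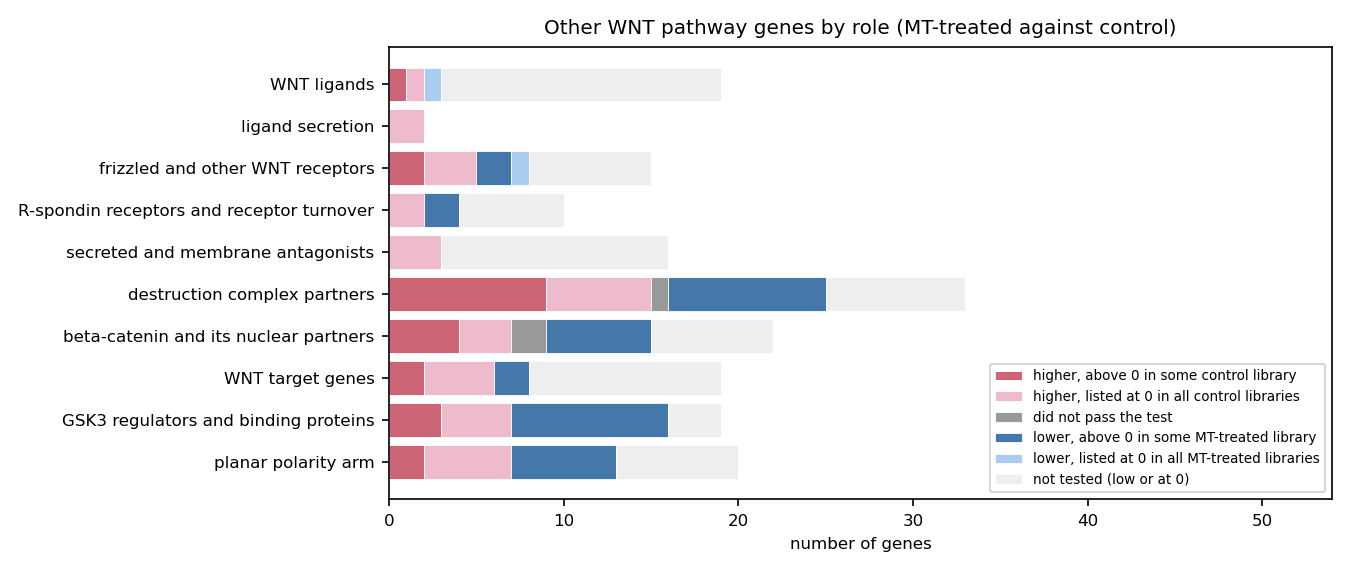
Number of genes (horizontal axis) in each of 10 lists of other WNT pathway genes, by outcome of limma at an adjusted p-value under 0.05 and by listing at 0 in all libraries of a group. A gene can be in more than 1 list. Most ligands and antagonists were not tested, and the destruction complex partners hold the most tested genes, with 15 higher and 9 lower as deposited and 12 each after quantile normalization.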

How the data were processed

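Blastocyst RNA was measured in 3 control and 3 MT-treated libraries. The authors' deposited table gives a TPM for each gene in each library, to 2 decimals. Their methods give fastp 0.20.1, and the submitters' processing notes name FastQC 0.11.9, STAR 2.7.9a, featureCounts (Subread 1.6.3) and DESeq2. How counts became TPM is not given in the sources used here. The build is ARS-UCD1.3 in the methods and ARS-UCD1.2 in the submitters' processing notes, and the methods name Smart-seq2 where the labels name a TruSeq kit. MT concentration, maturation time and pool size came from the methods. TPM keeps no counts, so no counting error is given. The table holds no coordinates, and positions and sequences are not given here.

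Genes with at least 1 TPM in at least 3 libraries were fitted as log2(TPM + 1) with limma 3.58.1 (R 4.3.3, eBayes with trend) and Benjamini-Hochberg adjustment at 0.05. Summaries were made in Python 3.11.15 with pandas 2.3.3 and numpy 2.4.6, and figures in matplotlib 3.10.9. On simulated data for this comparison (11953 genes, 200 changed) the fit recovered 95.5% and made 15 false calls. The 3 libraries of a group came from separate production runs. The methods describe all MT concentrations side by side within a run, but no label ties a replicate number to a run.

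The 10 genes and the pathway lists were chosen with earlier results of these data known. Named pathway genes were, per list, up to 2 rises and 2 falls with the largest log2 difference and no overlap, plus CTNNB1, and for GSK3A and GSK3B the 3 genes at the smallest distance. A further gene that this rule names is not reported here. Results were recomputed with 0.1 as the pseudocount, without the filter, with a 5 TPM minimum, after quantile normalization, after median centring on the 5988 genes with at least 1 TPM in all libraries, without the eBayes trend, with a replicate block and with each library left out.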

Additional observations from a re-analysis of the deposited data

How the results depend on the processing

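Over all genes, 7367 were higher and 4071 lower (64.4% of the 11438 called genes were higher), which became 5550 and 5311 (51.1%) with quantile normalization, and 8412 and 3038 (73.5%) with median centring. Of the 94 further pathway genes, 54 were higher and 37 lower. Restricting them to the 59 that no library lists at 0, which was decided after seeing the data, left 21 higher and 35 lower, and the same restriction over all genes left 2809 higher and 3620 lower of 6925. Every other alternative kept these 3 counts within 1.5 times, and leaving out 1 library gave 11336 to 11380 genes in all, 53 to 55 higher pathway genes and 36 to 37 lower ones. The replicate block gave 11461 genes in all, with 53 higher and 36 lower pathway genes. Deviations of same-numbered libraries correlated at -0.0115, -0.000679 and 0.0588 across genes. Such values show no shared deviation, but they cannot decide whether libraries of the same number shared a production run.

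Of the 10 genes, the difference in log2(TPM + 1) turned under quantile normalization to -0.33 for GSK3A, -0.26 for LRP5, -0.057 for DVL1 and -1.57 for APC, and without a filter, an alternative added after seeing the data, to -1.57 for APC and -1.28 for LRP6. GSK3A, LRP5 and DVL1 are listed at 0 in every control library, and tied zeros receive the mean of their ranks, so the values of these 3 depend on how many genes are included and measure no change in level. The same holds for every other gene listed at 0 in all libraries of a group. No direction turned with a pseudocount of 0.1, with median centring or without any 1 library, where GSK3B stayed between -3.09 and -3.04. Depth was not used here, which limits what can be said of values under about 1 TPM.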

Other observations

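Several families beside the 10 genes also held a paralog listed at 0 in control beside one that fell. These pairs were picked after their values were seen, and p-values are from the same limma fit. Families were not counted, so whether such pairs are more frequent here than among other genes was not tested. Of all tested genes, 33.8% had no TPM throughout control, and limma called 34.1% lower with MT. Other families of the lists lacked the pattern. ROCK1 and ROCK2, CTBP1 and CTBP2, and PPP1CA, PPP1CB and PPP1CC were all above 0 in control. AKT1, a kinase that inhibits GSK3 by phosphorylation, fell from 29.8 ± 0.849 to 16.2 ± 1.12 TPM (SD, n = 3 each; adjusted p = 8.86e-06 by limma), while AKT2 was listed at 0 in control and had 1.54, 1.98 and 1.47 TPM with MT. Of the coactivators, CREBBP was listed at 0 in control and had 17.2, 25.2 and 26.2 TPM with MT, while EP300 fell. SGK3 was likewise listed at 0 in control, with 21.3, 20.9 and 18.6 TPM with MT, while SGK1 fell. Under quantile normalization AKT1 stayed lower, AKT2 turned, and CREBBP and SGK3 did not turn. The last 3 have tied zeros in control, so their result there measures no change in level.

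Of the GSK3-binding proteins, FRAT1, which competes with AXIN for GSK3, fell from 18.2 ± 0.218 to 5.16 ± 0.451 TPM (SD, n = 3 each; adjusted p = 3.99e-07 by limma). GSKIP was listed at 0 in control and had 4.71, 4.61 and 4.61 TPM with MT.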
